A study of Mus musculus with 12 samples.

Results

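The 9 genes described here code for components and regulators of complement that skin fibroblasts can express, namely C1ra, C1s1, Masp1, C4b, C3, Cfb, Serping1, Cd55 and C3ar1. They were selected by name from the 21556 genes of the raw count table, and all 9 were found in it. RNA came from primary fibroblasts of the abdominal skin of WT mice (C57BL/6) and of Nox4 KO mice (B6.129-Nox4tm1Kkr/J). Heterozygotes were bred first, and WT and KO littermates then founded separate litters, so the 2 genotypes did not come from the same litters. All cells were expanded to passage 3, frozen and used between passage 4 and 7, and all were starved before stimulation. Cells of each genotype received either no TGF-β2 (control) or 10 ng/ml of it over 24 h, which gave 4 groups of 3 libraries each (WT control, WT with TGF-β2, Nox4 KO control and Nox4 KO with TGF-β2). Age and sex of the donor animals are not given with the libraries, and nothing in the sources used here states that the 3 libraries of a group came from separate animals, so p-values measure the spread between these libraries, which may be in part technical.

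Complement is a set of plasma and tissue proteins that tag microbes and damaged cells for removal. In the classical pathway C1q binds a target and switches on the proteases C1r and C1s, in the lectin pathway MASP proteases take this place, and both routes cleave C4 and C2 to build an enzyme that cleaves C3. Factor B amplifies the cleavage of C3 in the alternative pathway, while C1 inhibitor and membrane proteins such as CD55 restrain it. The liver makes most plasma complement, and fibroblasts are known to make several early components and C1 inhibitor locally, in amounts that cytokines such as interferons can raise.

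Several checks bear on all values. Total counts ran from 35118344 to 43796260 per library, and counting noise was smaller than the differences within each group. Fibroblast markers (Col1a1, Col1a2, Pdgfra, Dcn and 5 more) were all detected, with a summed level between 5463.69 and 8034.53 RPKM (reads per kilobase of merged exons, scaled to the library total). Nox4 itself received 203 to 398 reads in WT control, 1314 to 2471 in WT with TGF-β2, 102 to 207 in Nox4 KO control and 782 to 1175 in Nox4 KO with TGF-β2, so reads were still counted on the targeted gene, and the table does not show from which exons they came. The 12 macrophage markers were detected too, with a summed level of 14.4 to 127 RPKM, and their highest libraries were replicate 3 of both WT groups and replicate 1 of both Nox4 KO groups. The 14 genes of the interferon list were highest in replicate 3 of WT control, at 723 RPKM against 334 and 366 in the other WT control libraries.

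Several members lie close to each other or to related genes. On GRCm38, C1ra (ENSMUSG00000055172, chr6:124512405-124523443, plus strand) and C1s1 (ENSMUSG00000038521, chr6:124530345-124542359, minus strand) are 6.9 kb apart and point towards each other, and C1rl ends 1.76 kb upstream of C1ra. C4b (ENSMUSG00000073418, chr17:34728380-34743882) and Cfb (ENSMUSG00000090231, chr17:34856374-34862518) are 112 kb apart on the minus strand, and C2 ends 0.086 kb upstream of Cfb. C3 (ENSMUSG00000024164) is far from both on the same chromosome, at chr17:57203970-57228136. The other members are Serping1 (ENSMUSG00000023224, chr2:84765387-84775444), Cd55 (ENSMUSG00000026399, chr1:130439027-130462744), Masp1 (ENSMUSG00000022887, chr16:23449417-23520815) and C3ar1 (ENSMUSG00000040552, chr6:122847138-122856161), all on the minus strand. Values refer to whole genes, counted over merged exons with UTRs included.

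Some members share sequence with other genes, and the authors discarded reads with several mapping places. Of all 50-base windows, the read length, in the transcripts of a gene, the share also found in another gene was 0% for C3, Serping1 and C3ar1 and 0.201% for Masp1. It was 35.2% for C4b, all of it with C4a, and 74.2% for Cfb, all of it with Gm20547. It was 50.8% for C1ra (48% with C1rb), 36.7% for C1s1 (22.8% with C1s2) and 11.2% for Cd55 (9.62% with Cd55b). C4a and C1rb were not analysed here, and C1s2 had 5 to 13 reads per library against at least 3558 for C1s1. The exons of Cfb overlap over 79.5% of their length with Gm20547, a readthrough gene of C2 and Cfb on the same strand. Levels of C4b, C1ra, C1s1 and Cd55 are therefore uncertain and can be too low. The level of Cfb is uncertain in another way. Gm20547 lies at the same place and was not counted as a gene of its own, so its reads cannot be told apart from those of Cfb. C1s1 and Cd55 also overlap the antisense genes Gm16567 and Gm16083, over 19.3% and 2.92% of their exon bases, and strand use in counting is not stated, so reads of these partners cannot be told apart.

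Start-site sequences are shown for the members that RefSeq promoter windows (GRCm38.p6) cover, since members that fell together after TGF-β2 are among them. Windows were matched for 5 of the 9 members and hold 250 bases before and 50 bases after a start site, 5′ to 3′ on the strand of the gene. C4b, Cfb, Serping1 and Masp1 were not matched. Capitals mark matches to the 5 motifs searched on both strands, which were GGG and TTCC with 3 bases between them (NF-kB), TTCNNNGAA (GAS, bound by STAT proteins), TTTC and TTTC with 2 bases between them (ISRE, bound by interferon regulatory factors), TGANTCA (AP-1) and GTCTAGAC (a SMAD palindrome).
C3, chr17:57228087-57228386, minus strand: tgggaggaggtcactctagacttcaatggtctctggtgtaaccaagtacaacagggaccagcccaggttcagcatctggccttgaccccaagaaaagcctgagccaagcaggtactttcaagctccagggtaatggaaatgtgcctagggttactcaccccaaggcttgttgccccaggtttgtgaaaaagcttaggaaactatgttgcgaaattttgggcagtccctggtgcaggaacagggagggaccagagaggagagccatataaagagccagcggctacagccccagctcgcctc
C1ra, chr6:124512371-124512670, plus strand: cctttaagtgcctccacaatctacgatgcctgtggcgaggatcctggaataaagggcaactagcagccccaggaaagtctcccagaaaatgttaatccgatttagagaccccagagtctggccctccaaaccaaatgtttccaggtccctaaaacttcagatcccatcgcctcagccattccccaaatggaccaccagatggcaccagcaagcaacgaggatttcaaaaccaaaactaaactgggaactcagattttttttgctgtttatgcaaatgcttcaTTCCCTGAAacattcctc
C1s1, chr6:124542310-124542609, minus strand: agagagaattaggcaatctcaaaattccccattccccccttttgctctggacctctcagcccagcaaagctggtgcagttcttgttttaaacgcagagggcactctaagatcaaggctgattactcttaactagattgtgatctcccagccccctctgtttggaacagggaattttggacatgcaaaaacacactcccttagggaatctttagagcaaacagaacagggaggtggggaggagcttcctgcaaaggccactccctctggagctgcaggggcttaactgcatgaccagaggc
Cd55, chr1:130462695-130462994, minus strand: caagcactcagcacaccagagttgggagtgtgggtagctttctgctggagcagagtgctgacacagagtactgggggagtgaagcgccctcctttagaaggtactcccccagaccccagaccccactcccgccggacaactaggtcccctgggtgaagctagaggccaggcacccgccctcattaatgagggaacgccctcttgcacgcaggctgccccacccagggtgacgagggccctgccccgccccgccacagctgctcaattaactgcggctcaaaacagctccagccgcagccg
C3ar1, chr6:122856108-122856407, minus strand: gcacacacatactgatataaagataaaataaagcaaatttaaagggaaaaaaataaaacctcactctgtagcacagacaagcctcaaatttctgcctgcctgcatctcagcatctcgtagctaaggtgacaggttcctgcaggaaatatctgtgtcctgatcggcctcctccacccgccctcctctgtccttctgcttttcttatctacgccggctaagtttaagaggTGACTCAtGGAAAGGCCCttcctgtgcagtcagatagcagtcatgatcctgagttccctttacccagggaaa
The C1ra window held 1 match, to the GAS motif, 32 bases after the start site, and the C3ar1 window held an AP-1 match at -22 and, beside it, an NF-kB match at -14 that reads on the other strand. No match was found in the windows of C3, C1s1 (also at its second start site) and Cd55. Of all 32851 promoter windows, 8.3% held the GAS motif, 5.56% NF-kB, 7.81% AP-1, 3.44% ISRE and 0.213% the SMAD palindrome. A match of letters is not a bound site, and factor binding was not measured.

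In unstimulated WT fibroblasts the members ranged from genes near the top of the table to C3ar1, which lay under the filter of 1 RPKM. Serping1, which codes for C1 inhibitor, stood first with 69.9 ± 21.2 RPKM (mean ± SD, n = 3), above 96.6% of all genes in the table. C1s1 followed with 54.8 ± 14.3 RPKM, and the ranges of these 2 genes overlapped. The next in order were C4b with 10.5 ± 6.07, C1ra with 9.67 ± 2.75 and C3 with 9.14 ± 7.06 RPKM, and C1s1 stood 5.24 times above C4b with no overlap. The ranges of C4b, C1ra and C3 overlapped with each other, so their order was not resolved. Cd55 (6.34 ± 0.457 RPKM) overlapped with C4b and C3 but lay below every C1ra library. Masp1 (4.14 ± 0.619 RPKM) lay below Cd55 without overlap and overlapped with Cfb (3.15 ± 2.39 RPKM). C3ar1, with 0.748 ± 0.591 RPKM, was last. In Nox4 KO control the same 2 genes led, C1s1 with 50.6 ± 6.05 and Serping1 with 49.9 ± 8.14 RPKM, and C3 came next with 13.1 ± 4.59 RPKM.

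**Figure D1:**
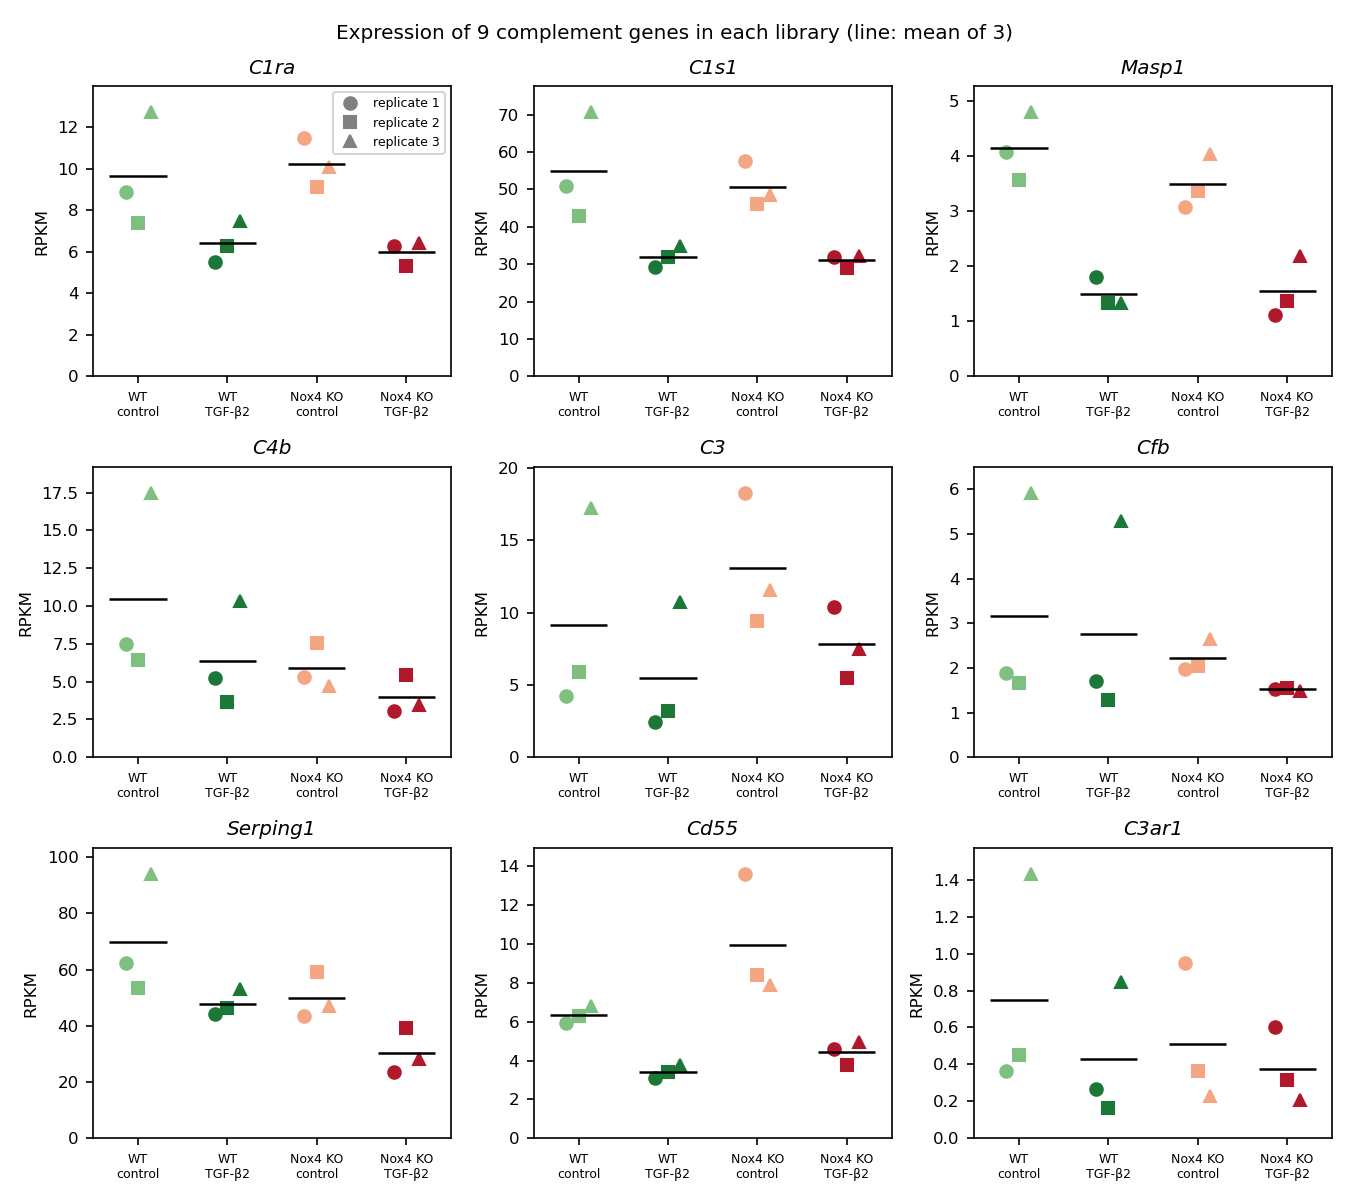
RPKM (linear axis from 0) of the 9 members in each of the 12 libraries, with 1 panel per gene, symbols for replicate numbers and a line at the mean of each group of 3. Control libraries of Masp1, Cd55 and C1s1 sit above the stimulated ones in both genotypes, and replicate 3 of both WT groups stands apart for C3, C4b, Cfb and C3ar1.

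Masp1, C1s1 and Cd55 were lower after TGF-β2 in both genotypes. In WT, 3 of the 8 members tested were called lower (Masp1, Cd55 and C1s1) and 0 higher, by edgeR's quasi-likelihood test at an adjusted p-value under 0.05. Of all 10743 genes tested, 12.2% were called lower and 10.4% higher. In Nox4 KO 4 of 8 were called lower (C1ra, C1s1, Cd55 and Masp1) and 0 higher, against 14.9% lower and 15.1% higher of 10809 genes. With a fold of at least 2 as well, Masp1 was left in WT (1 of 8, against 5.09% of genes) and Masp1 and Cd55 in Nox4 KO (2 of 8, against 4.58%). Stimulated libraries all lay below control libraries for 3 of 8 members in WT (23.0% of genes) and 6 of 8 in Nox4 KO (23.6%). All 8 members had a negative log2 fold change in both genotypes, with medians of -0.67 in WT and -0.64 in Nox4 KO, where the medians of all genes tested were -0.0027 and -0.014. These are sums over all cells of a culture, so fewer cells of a type and less RNA per cell cannot be told apart.

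**Figure D2:**
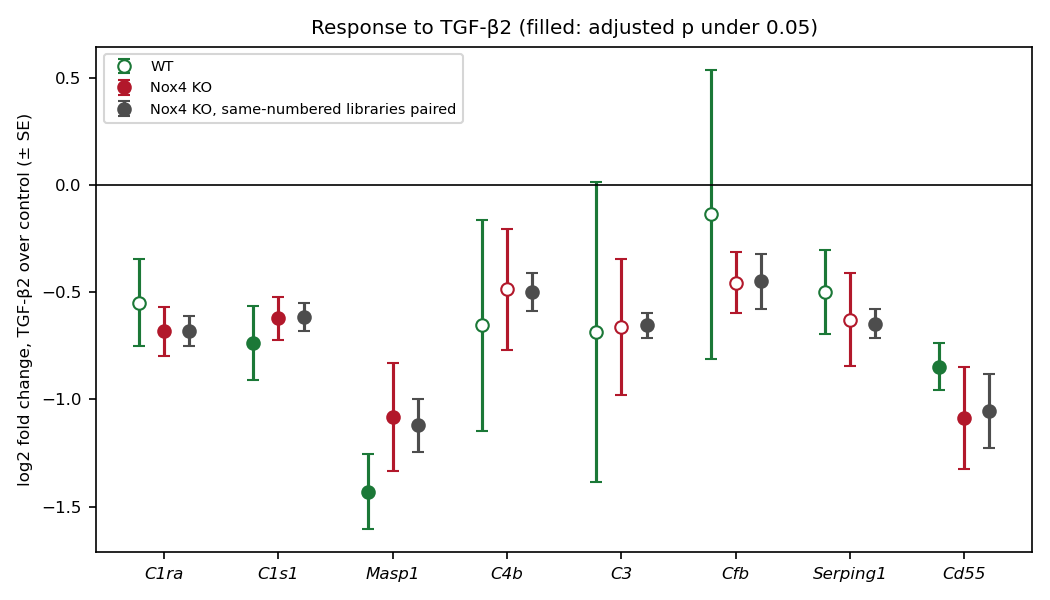
Log2 fold change (± SE) of TGF-β2 over control for the 8 members tested, in WT (green), in Nox4 KO (red) and in Nox4 KO with same-numbered libraries paired (grey), with filled points for an adjusted p-value under 0.05. All points lie below 0, 3 are filled in WT, 4 in Nox4 KO and 8 in the paired fit.

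Masp1, a protease that starts the lectin pathway, showed the largest fall of the members in WT. Its RPKM was 4.07, 3.56 and 4.79 in WT control against 1.81, 1.32 and 1.32 with TGF-β2, and 3.08, 3.36 and 4.04 in Nox4 KO control and 1.11, 1.37 and 2.19 with TGF-β2. The highest stimulated library stayed below the lowest control library in both genotypes. It changed by -1.43 on the log2 scale (SE 0.175, adjusted p = 0.00287 by edgeR) in WT and -1.08 (SE 0.252, adjusted p = 0.0246) in Nox4 KO. The call in WT held without any 1 library, with adjusted p-values of at most 0.0150. In Nox4 KO it was lost without any of 5 libraries, at adjusted p-values up to 0.0968, and held only without replicate 3 of the stimulated group. Counts per gene do not separate the splice forms of Masp1.

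C1ra and C1s1 code for the proteases of the C1 complex that C1q carries, C1r activating C1s and C1s cleaving C4 and C2. C1s1 measured 51.0, 42.8 and 70.6 RPKM in WT control and 29.2, 31.8 and 34.8 after stimulation. Nox4 KO libraries measured 57.5, 46.0 and 48.4 RPKM in control and 29.0 to 32.2 after TGF-β2. The groups did not overlap in either genotype, and the stimulated libraries were close to each other, at 31.9 ± 2.78 RPKM in WT and 31.0 ± 1.80 RPKM in Nox4 KO. On the log2 scale it changed by -0.74 (SE 0.173, adjusted p = 0.0255 by edgeR) in WT and -0.62 (SE 0.10, adjusted p = 0.00899) in Nox4 KO. The WT call was lost without control replicate 1, control replicate 3 or stimulated replicate 1, at adjusted p = 0.0677, 0.0557 and 0.0906 in turn, and that of Nox4 KO held without any 1 library.

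C1ra, counted at a lower level, had 8.88, 7.40 and 12.7 RPKM in WT control and 5.51, 6.26 and 7.46 after stimulation. In Nox4 KO the values were 11.5, 9.15 and 10.1 RPKM in control and 6.27, 5.33 and 6.44 after TGF-β2. The WT groups overlapped by 1 library, and those of Nox4 KO did not. It fell by 0.68 on the log2 scale (SE 0.114, adjusted p = 0.00990 by edgeR) in Nox4 KO, a call that held without any 1 library. It was -0.55 in WT (95% interval -1.03 to -0.064, adjusted p = 0.0978), which did not pass, though it did with all 12 libraries in the fit (adjusted p = 0.0368).

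C4b and C3, the components whose cleaved forms bind to targets, and Cfb, the protease of the alternative pathway, varied widely between the WT libraries. C3 measured 4.27, 5.91 and 17.2 RPKM in WT control and 2.47, 3.18 and 10.7 after stimulation. Replicate 3 was 3.38 and 3.80 times the mean of the other 2 libraries in these groups. In Nox4 KO, C3 measured 18.2, 9.44 and 11.6 RPKM in control and 10.4, 5.52 and 7.50 after TGF-β2. Control and stimulated groups overlapped in both genotypes. The change of C3 on the log2 scale was -0.69 (95% interval -2.35 to 0.98, adjusted p = 0.509 by edgeR) in WT and -0.66 (-1.43 to 0.11, adjusted p = 0.160) in Nox4 KO. Without replicate 3 of WT control the value in WT became 0.15, with adjusted p = 0.903.

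C4b was measured at 7.50, 6.43 and 17.4 RPKM in WT control and 5.21, 3.64 and 10.3 after stimulation. In Nox4 KO it stood at 5.30, 7.59 and 4.75 RPKM in control and 3.03, 5.42 and 3.43 after TGF-β2. Replicate 3 was again the highest in WT, whereas replicate 2 was the highest in both Nox4 KO groups, and the groups overlapped. Its log2 fold change was -0.65 (adjusted p = 0.370) in WT and -0.49 (adjusted p = 0.232) in Nox4 KO, neither past the threshold of edgeR's test. Of the fits without 1 library, the one without replicate 3 of WT control gave the WT value closest to 0, at -0.076.

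Cfb had 1.88, 1.67 and 5.91 RPKM in WT control and 1.70, 1.29 and 5.30 after stimulation, which corresponds to a log2 fold change of -0.14 with an interval from -1.74 to 1.46 (adjusted p = 0.898 by edgeR). Its sign in WT turned without control replicate 3 (0.68) and without stimulated replicate 1 (0.10) or 2 (0.21). In Nox4 KO its values were 1.98, 2.05 and 2.64 RPKM in control and 1.53, 1.56 and 1.48 after TGF-β2. These groups did not overlap, and the log2 fold change of -0.46 (SE 0.143, adjusted p = 0.0566) stood just above the threshold. DESeq2 gave an adjusted p of 0.0414 for it.

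The 2 regulators differed in edgeR's test without pairing, which Cd55 passed in both genotypes and Serping1 in neither. Serping1 codes for C1 inhibitor, a plasma protein that inactivates C1r, C1s and MASP proteases. It measured 62.2, 53.5 and 93.9 RPKM in WT control and 44.2, 46.5 and 53.1 after TGF-β2, and 43.6, 59.1 and 46.9 in Nox4 KO control and 23.5, 39.4 and 28.4 after TGF-β2. In WT the highest stimulated library came next to the lowest control library, and after TMM scaling they overlapped. In edgeR's test the log2 fold change was -0.50 (95% interval -0.96 to -0.030, adjusted p = 0.115) in WT and -0.63 (-1.16 to -0.10, adjusted p = 0.0741) in Nox4 KO. DESeq2 called it in Nox4 KO, at adjusted p = 0.0203.

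Cd55 codes for decay-accelerating factor, a membrane protein that takes apart the enzymes that cleave C3. It measured 5.91, 6.27 and 6.82 RPKM in WT control and 3.08, 3.41 and 3.79 after stimulation. Nox4 KO libraries had 13.6, 8.42 and 7.88 RPKM in control and 4.59, 3.75 and 4.95 after TGF-β2. No stimulated library reached a control library of its genotype. The log2 fold change was -0.85 (SE 0.111, adjusted p = 0.00361 by edgeR) in WT and -1.09 (SE 0.237, adjusted p = 0.0201) in Nox4 KO. The WT call held without any 1 library, and that of Nox4 KO was lost without stimulated replicate 1 (adjusted p = 0.0582) or 2 (0.0823).

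C3ar1, the receptor for the C3a fragment, which macrophages and other myeloid cells are known to carry, had under 1 RPKM in every group mean and did not enter the fit. Its reads numbered 55, 74 and 248 in WT control, 47, 27 and 136 in stimulated WT, 156, 65 and 36 in Nox4 KO control and 111, 60 and 38 in stimulated Nox4 KO. The groups overlapped in every comparison, and exact permutation tests of log2(CPM + 0.5), two-sided, gave p = 0.5 for TGF-β2 in WT and p = 0.6 in Nox4 KO, where 3 libraries against 3 allow no p under 0.1. Without a filter its log2 fold change was -0.72 (SE 0.672) in WT and -0.34 (SE 0.598) in Nox4 KO.

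In Nox4 KO, same-numbered libraries deviated together over all genes, though not for each member, with Cfb as the clearest exception. Deviations from the group means over 10890 genes correlated at 0.763, 0.688 and 0.741 between the control and the stimulated library of the same number, so the numbers pair these libraries. In the fit with the pairs as a block, 8 of 8 members were called lower, while 28.8% of the 10809 genes were called lower and 25.2% higher. C3 fell by 0.65 (SE 0.0583, adjusted p = 0.000836), C4b by 0.50 (SE 0.0874, adjusted p = 0.00668), Cfb by 0.45 (SE 0.127, adjusted p = 0.0317) and Serping1 by 0.65 (SE 0.0680, adjusted p = 0.00134) on the log2 scale. Ratios of stimulated over control counts within pairs were taken after TMM scaling over all 12 libraries. The 27 ratios, 9 members in 3 pairs, were all negative on the log2 scale, from -1.46 for Cd55 in pair 1 to -0.0076 for C3ar1 in pair 3. Those of C3ar1 in pairs 2 (-0.086) and 3 were the smallest falls of the 27. In the TMM fit of all 12 libraries, the median log2 fold change of all genes in Nox4 KO was 0.023. For C3 the 3 pairs gave -0.71, -0.68 and -0.50, although its level differed between pairs.

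The libraries that stood out in the macrophage markers also stood out for some members. C3 and C3ar1 were highest in the macrophage-high library in 4 of 4 groups, as were C1qa, C1qb and C1qc, the subunits of C1q that macrophages make. The same held for Colec12, a further complement gene described below, and in 3 of 4 groups for C1ra, C1s1 and Cd55. C3ar1 there was 2.28 to 3.91 times the mean of the other 2 libraries, C3 1.60 to 3.80 times and the summed macrophage markers 2.97 to 3.53 times. Replicate 3 of WT control was the highest of its group for 9 of 9 members, where it was the highest for 38.1% of all 10890 genes, and replicate 3 of WT with TGF-β2 for 8 of 9 members (32.5% of genes). In Nox4 KO the highest library changed from member to member, and no library was the highest for more than 5 of 9. Serping1 and C4b were highest in replicate 2 of both Nox4 KO groups, which had 35.1 and 25.6 RPKM of macrophage markers against 97.9 and 70.4 in replicate 1. The part of macrophages in the members' levels was not tested.

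**Figure D3:**
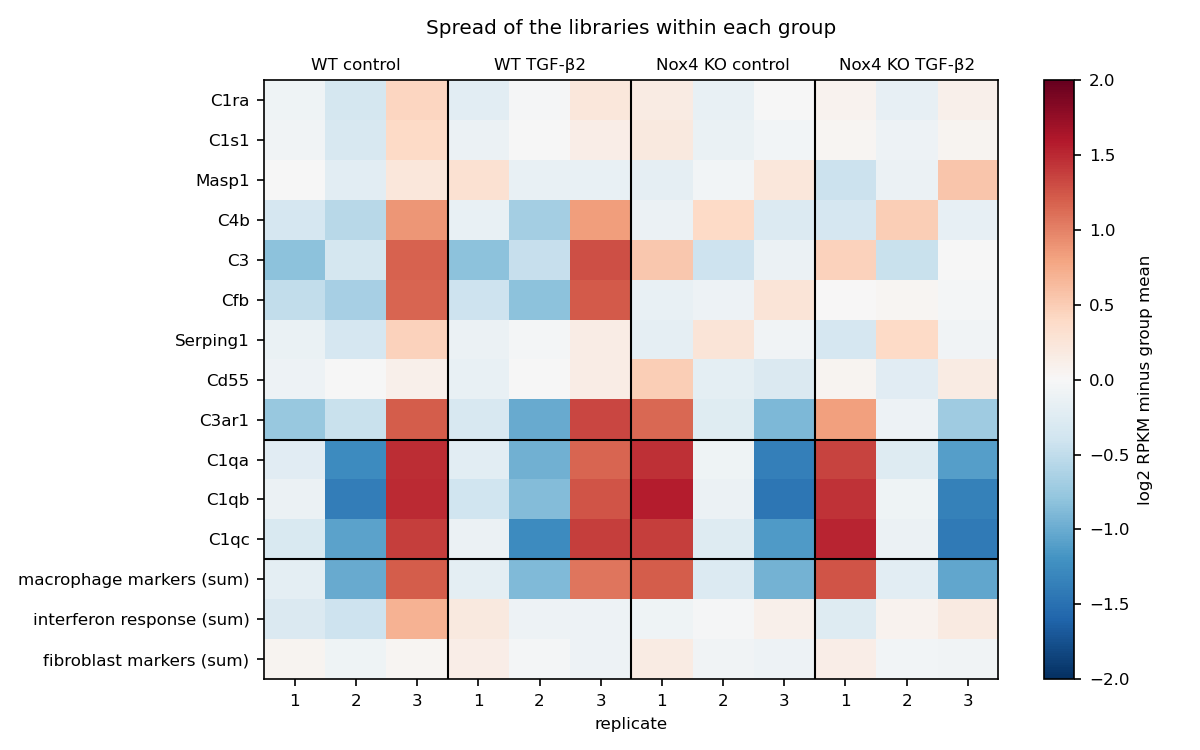
Log2 RPKM minus the mean of its group, for the 9 members, the 3 subunit genes of C1q and the summed RPKM of 3 marker lists (rows), in the 3 replicates of each group (columns), with red above and blue below the group mean. C3 and C3ar1 are red where C1q and the macrophage markers are red, in replicate 3 of WT and replicate 1 of Nox4 KO, while the summed fibroblast markers stay near 0 in all libraries. In the remaining replicates of each group, C3 and the macrophage markers rank in opposite order.

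Counts of called members changed when these libraries were left out, a choice made after the data were seen. Without replicate 3 of both WT groups, 3 of 8 members were still called lower in WT, with 7.57% of genes called lower. All 8 log2 fold changes were negative in that fit, with C3 at -0.83 (adjusted p = 0.0577 by edgeR). Without the libraries highest in the interferon list, which are WT control 3 and stimulated WT 1, only Masp1 was called (1 of 8, with 2.39% of genes called lower), and the log2 fold changes of C3, C4b and Cfb turned to 0.49, 0.039 and 0.93. In Nox4 KO, without replicate 1 of both groups, 0 of 8 members were called by edgeR, with 1.5% of genes called lower. All 8 log2 fold changes were still negative there, 6 of 8 members had an unadjusted p-value under 0.05, and DESeq2 was not run on these 4 libraries. The log2 fold change was then -0.54 for C1s1 (adjusted p = 0.0609 by edgeR), -0.82 for Cd55 (adjusted p = 0.0777), -0.62 for C1ra (adjusted p = 0.0810) and -0.97 for Masp1 (adjusted p = 0.105).

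Nox4 KO and WT fibroblasts were compared to ask whether the loss of Nox4 changes the members. In control, 0 of 8 members were called, as were 0% of the 10767 genes tested, by edgeR's quasi-likelihood test (smallest adjusted p of any gene 0.423). At an unadjusted p-value under 0.05 there was 1 member and 5.54% of genes, and DESeq2 called 0 members and 28 genes. After TGF-β2, 0 of 8 members and 0% of 10439 genes were called, with 2 members and 3.23% of genes at an unadjusted p-value under 0.05, and DESeq2 called 0 members and 16 genes.

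Cd55 and Serping1 had the smallest unadjusted p-values among the members. Cd55 was higher in Nox4 KO control (9.96 ± 3.14 RPKM) than in WT control (6.34 ± 0.457 RPKM), with no overlap, a log2 fold change of 0.62 (95% interval 0.096 to 1.14, adjusted p = 0.828). Groups that did not overlap, higher in Nox4 KO, were found for 5.85% of all genes. After TGF-β2 it was 4.43 ± 0.611 RPKM in Nox4 KO and 3.43 ± 0.358 in WT, which overlapped (log2 fold change 0.39, adjusted p = 0.838). Serping1 was lower in Nox4 KO after TGF-β2, at 30.4 ± 8.12 against 47.9 ± 4.63 RPKM with no overlap, as for 6.12% of genes, and a log2 fold change of -0.64 (95% interval -1.10 to -0.17, adjusted p = 0.838). In control its log2 fold change was -0.52 (-1.04 to 0.0044, adjusted p = 0.828), and the groups overlapped. Neither gene passed the test in either condition.

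The other members were bounded less well in some cases than in others. For C1s1 the interval of the log2 fold change of Nox4 KO over WT was -0.58 to 0.28 in control and -0.26 to 0.22 after TGF-β2, and for C1ra it was -0.41 to 0.51 and -0.42 to 0.28. For C3 it was -0.78 to 1.78 in control and -0.82 to 1.88 after TGF-β2, and for Cfb -1.69 to 0.63 and -2.10 to 0.41, so that a 2-fold rise of C3 or a 2-fold fall of Cfb lay within the intervals. C4b had -0.85 (-1.81 to 0.10) in control and -0.68 (-1.67 to 0.31) after TGF-β2, and Masp1 -0.28 (-0.59 to 0.027) and 0.080 (-0.58 to 0.74). C3ar1 had exact permutation p-values of 0.5 in control and 1 after TGF-β2.

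**Figure D4:**
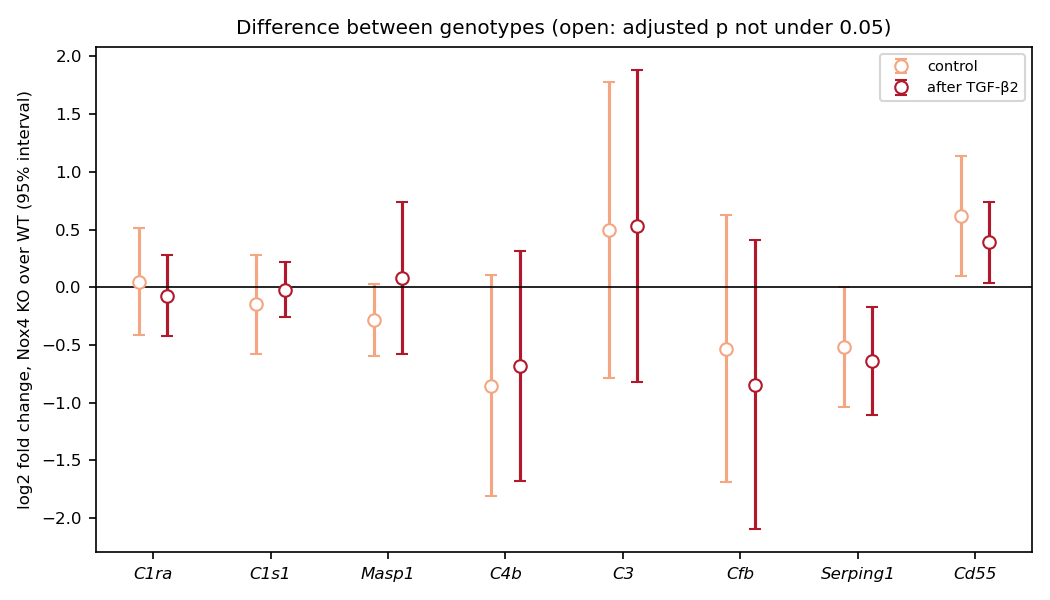
Log2 fold change of Nox4 KO over WT with 95% intervals for the 8 members tested, in control (light) and after TGF-β2 (dark), with open points because no adjusted p-value was under 0.05. The intervals of C3, C4b and Cfb are the widest, and those of C1s1 and C1ra include 0.

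The difference between the 2 genotypes in the response to TGF-β2 was tested as an interaction over all 12 libraries. Of 10890 genes, 0% were called by edgeR, and 0 of 8 members, with 0 members and 2.68% of genes at an unadjusted p-value under 0.05, and DESeq2 called 0 members and 6 genes. Masp1 was farthest from 0 of the members, with a log2 difference of 0.36 (95% interval -0.37 to 1.09, adjusted p = 0.854 in edgeR's test), that is a smaller fall in Nox4 KO. C1s1 had 0.13 (-0.35 to 0.61), C1ra -0.12 (-0.68 to 0.44), Cd55 -0.23 (-0.82 to 0.37) and Serping1 -0.12 (-0.82 to 0.59). Calls made in 1 genotype and not in the other, such as C1ra in Nox4 KO, were thus not shown to differ between the genotypes.

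Of 45 further complement genes, 43 were in the table, 33 had over 3 reads in at least 1 library and 11 reached a mean of 1 RPKM in a group. In WT and in Nox4 KO, 3 of these 11 were called lower after TGF-β2 and 0 higher, namely C1rl, Colec12 and Cd59a, with a median log2 fold change over the 11 of -0.30 and -0.29. Of all genes tested, 12.2% were called lower in WT and 14.9% in Nox4 KO. C1rl, which codes for a protease related to C1r and lies next to C1ra, changed most, from 3.04, 2.61 and 3.36 RPKM in WT control to 0.791, 0.740 and 0.607 after TGF-β2. Its log2 fold change was -2.03 (SE 0.178, adjusted p = 0.00100 by edgeR) in WT and -2.01 (SE 0.183, adjusted p = 0.00260) in Nox4 KO, and the groups were far apart in both.

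Colec12, a membrane collectin that recognises sugars, had 26.4 ± 5.33 RPKM in WT control and 12.5 ± 1.82 after TGF-β2, which is -1.03 on the log2 scale (adjusted p = 0.00718 by edgeR), and -0.86 (adjusted p = 0.0138) in Nox4 KO. Cd59a, which blocks the membrane attack complex, had 10.9 ± 0.576 and 5.46 ± 1.04 RPKM, a log2 fold change of -0.96 (adjusted p = 0.00690), and -0.93 (adjusted p = 0.00428) in Nox4 KO. Of the membrane regulators, Cd55 and Cd59a thus fell in both genotypes. Cr1l, which codes for the rodent regulator Crry, was the most even, at 13.9 ± 0.848 and 12.5 ± 0.563 RPKM in WT, with a log2 fold change of -0.12 (-0.31 to 0.080, adjusted p = 0.342) there and -0.025 (-0.17 to 0.12, adjusted p = 0.774) in Nox4 KO.

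By role, 5 of the 14 listed initiation genes were tested and 2 were called lower in each genotype, both named above, while C1qa, C1qb and C1qc had log2 fold changes between -0.29 and -0.020 with standard errors of 0.77 to 0.93. Of 5 convertase and amplification genes, C2 (-0.66 in WT, adjusted p = 0.269) and properdin, Cfp (-0.30, adjusted p = 0.422), were tested and not called. The terminal pathway, which forms the pore, had 1 of 6 genes tested, C8g, not called, and Hc, which codes for C5, had 9 to 73 reads per library. Of 7 soluble regulators only Clu was tested, and it was not called. None of the 7 other receptor genes reached the filter.

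**Figure D5:**
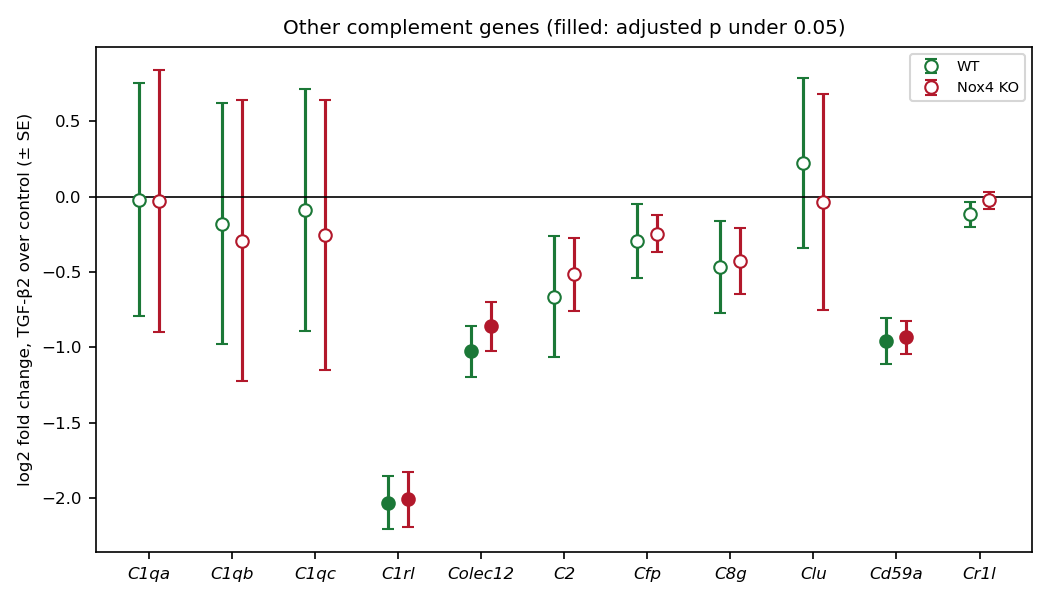
Log2 fold change (± SE) of TGF-β2 over control for the 11 other complement genes tested, in WT (green) and Nox4 KO (red), with filled points for an adjusted p-value under 0.05. C1rl, Colec12 and Cd59a are filled in both genotypes, and the C1q genes have the longest bars.

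Genes that are known to respond to the cytokines that also raise complement were counted in the same fits. The shares of all genes called were 12.2% lower and 10.4% higher in WT, and 14.9% lower and 15.1% higher in Nox4 KO. Of 13 interferon genes tested in WT, 1 was called lower and 0 higher, with a median log2 fold change of -0.86, and of 12 in Nox4 KO, 4 were called lower and 0 higher, with a median of -0.79. In the acute phase and NF-kB list, 5 of 11 were called lower and 1 higher in WT (median -0.52), and 6 lower and 0 higher in Nox4 KO (median -0.79). The summed level of that list was 307 to 488 RPKM in WT control and 174 to 250 after TGF-β2, and 255 to 316 and 147 to 191 in Nox4 KO. Macrophage markers had 0 of 8 called in either genotype, with medians of -0.38 and -0.44. Pericyte markers, 1 of 5 of which reached the filter, summed to 3.80 to 6.72 RPKM in WT control and 1.08 to 1.66 after TGF-β2 (2.82 to 5.29 and 1.09 to 1.86 in Nox4 KO), and adipocyte markers, 1 of 6, to 2.88 to 5.58 and 0.524 to 1.21 in WT (0.660 to 3.93 and 0.180 to 0.707 in Nox4 KO). Skeletal muscle markers, 2 of 7, summed to 42.0 to 98.3 RPKM in WT control and 275 to 615 RPKM after TGF-β2 (87.3 to 109.6 and 256 to 571 in Nox4 KO). Between control and TGF-β2, the acute phase, pericyte and skeletal muscle sums did not overlap in either genotype, and the adipocyte sums overlapped only in Nox4 KO. Macrophage sums overlapped in both genotypes, and interferon sums in WT (334 to 723 and 367 to 453 RPKM). Endothelial sums (2.54 to 4.37 RPKM in WT control, 1.69 to 2.47 after TGF-β2) and fibroblast sums (6643 to 7337 and 5464 to 6463) fell without overlap, also in Nox4 KO. The part of these lists in the members' levels was not tested. Some markers of mast cells (Mcpt4, Tpsb2), fat cells (Retn), melanocytes (Tyr) and muscle precursors (Myf5) were at 0 in all libraries. Others of the same lists had over 3 reads in at least 1 library. These were 2 of 6 mast cell, 3 of 6 adipocyte, 4 of 7 Schwann cell and melanocyte and 2 of 7 skeletal muscle markers. Mast cell markers summed to at most 0.340 RPKM, and Schwann cell and melanocyte markers to at most 1.29 RPKM.

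Over the 12 libraries, the genes whose log2(CPM + 0.5) was most like that of C3 were Serpina3n (Pearson r = 0.95), an acute phase serine protease inhibitor, and Ewsr1 (0.93) and Mtcp1 (0.91). For Serping1 they were Islr (0.98), Spry4 (0.97), A4galt (0.96), Hspb8 (0.95) and Ccl11 (0.93), the last a chemokine for eosinophils. These came from a ranking of 10889 genes, and the points share the contrast of TGF-β2 and the libraries that stand apart, so the values are a description.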

How the data were processed

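RNAseq of 12 libraries was analysed from the raw counts per gene that the authors deposited. The authors aligned single-end reads with STAR to the mouse build GRCm38, kept those with a single location and used featureCounts to count them per gene over the union of exons from protein-coding isoforms. The submitters' processing notes name CASAVA 1.8.2, STAR 2.4 and featureCounts 1.4.6. Whether strand was used is not given in the sources used here. Genes and lengths were matched by Ensembl identifier to GENCODE M21, and RPKM was computed from the deposited counts, merged exon length and library total. For a gene of 2 kb, 3 reads in the smallest library equal 0.0427 RPKM. Such floors cover counting error only.

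Each comparison was fitted on its own 6 libraries, and the interaction on all 12, with genes of at least 1 mean RPKM in at least 1 group (a member that is low in 1 group can enter through the other). The fits used edgeR 4.0.16 (quasi-likelihood test, TMM) in R 4.3.3, with Benjamini-Hochberg adjustment over all genes tested and a call at an adjusted p-value under 0.05. Standard errors were derived from the F statistic. C3ar1, under the filter, was compared with exact permutation tests. Groups were called not overlapping on TMM-scaled values. Alternatives were DESeq2 1.42.0, upper-quartile and library-size scaling, no filter, filterByExpr, all 12 libraries in 1 fit, a replicate block, a fold of at least 2, leaving out each library, exons of all transcripts for RPKM and, added after seeing the data, leaving out libraries high in macrophage or interferon genes. The procedures were tested on simulated data. Same-numbered libraries were taken as pairs only in Nox4 KO, from correlations all over 0.1, since no source states a pairing. The members, the gene lists and the tests were chosen with earlier results of these data known. Named were all members, other complement genes called in any comparison or counted by role, paralogs, Nox4 and, of the 5 genes most like C3 and the 5 most like Serping1, those given in the text. Some results under this rule are not reported here. Acta2, named as a check of stimulation, had 448530 to 497778 reads in WT control and 427631 to 650560 in WT with TGF-β2, and 460780 to 551036 and 411346 to 633009 in these groups of Nox4 KO. It was not called by edgeR in WT (log2 fold change 0.13, adjusted p = 0.664) or in Nox4 KO (-0.058, adjusted p = 0.820).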

Additional observations from a re-analysis of the deposited data

How the results depend on the processing

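The number of members called lower after TGF-β2 stayed between 3 and 4 of 8 in WT, and between 4 and 6 in Nox4 KO, with DESeq2, other scalings, other filters and all 12 libraries in the fit. The share of all genes called lower ran from 9.04% to 16% in WT and from 9.38% to 19.6% in Nox4 KO under these alternatives. With a fold of at least 2 as well, 1 member was called in WT and 2 in Nox4 KO, and 829 and 735 genes. Without the interferon-high WT libraries 1 member and 425 genes were called in WT, without the macrophage-high WT pair 1344 genes, and without the macrophage-high Nox4 KO pair 0 members and 255 genes, each on 4 libraries. Leaving out 1 library at a time gave 2 to 3 members and 1232 to 3399 genes in WT, and 2 to 4 members and 1134 to 3511 genes in Nox4 KO. The 2 were reached without replicate 1 of the stimulated Nox4 KO group. For Nox4 KO against WT and for the interaction, 0 members were called under every alternative run. Over all genes DESeq2 called 28 in control, 16 after TGF-β2 and 6 in the interaction, the fit of all 12 libraries 1 in control, and leave-outs 0 to 1.

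With the replicate block, 8 members and 5842 genes were called in Nox4 KO. In WT the same numbers correlated at 0.062, 0.41 and 0.52 and so do not pair the libraries. There the block called 7 of 8 members, all but Cfb, and 3080 genes (16.4% of genes lower), and each WT library correlated best with its own number, a hint from the data only. Between genotypes the numbers do not pair either, and the block called 0 members. Scaling moved the split of all calls in Nox4 KO, from 1637 higher and 1606 lower to 1216 and 1969 with upper quartiles and 1032 and 2122 with library size alone, where the median of all genes was -0.10. The 8 members were lower in both genotypes under these scalings too.

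Signs turned in the following cases, none of them past the threshold. Without the interferon-high WT libraries the log2 fold changes in WT were 0.49 for C3, 0.039 for C4b and 0.93 for Cfb, and the interaction values -1.12 for C3, -0.50 for C4b and -0.13 for C1s1. The interaction was -0.0079 for C3 with upper quartiles and -0.0027 with library size, -0.022 for C1s1 without the macrophage-high WT pair and 0.042 for Cd55 without the macrophage-high Nox4 KO pair. Leaving out 1 library gave ranges in WT of -1.64 to 0.15 for C3 and -1.02 to 0.68 for Cfb. Between genotypes in control they were -0.10 to 0.27 for C1ra, -0.29 to 0.048 for C1s1 and -0.82 to 0.26 for Cfb, and after TGF-β2 -0.15 to 0.062 for C1ra, -0.057 to 0.054 for C1s1, -1.20 to 0.050 for Cfb and -0.24 to 0.28 for Masp1. For the interaction they were -0.78 to 1.00 for C3, -0.39 to 0.71 for C4b, -0.36 to 0.037 for C1ra, -0.087 to 0.27 for C1s1, -1.11 to 0.58 for Cfb, -0.38 to 0.041 for Serping1 and -0.40 to 0.068 for Cd55. The cause was not tested. With 3 libraries a group, differences of C3, C4b and Cfb between genotypes are known only within wide intervals.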
